A study of Saccharomyces cerevisiae with 12 samples.

Results

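Protein phosphatase 2A (PP2A) and its close relatives were followed through 10 genes of budding yeast, chosen by systematic name from the 6685 genes listed. They encode the methyltransferase and the methylesterase that act on the phosphatase (PPM1, YDR435C; PPE1, YHR075C), the catalytic subunits PPH21 (YDL134C), PPH22 (YDL188C), PPH3 (YDR075W) and SIT4 (YDL047W), the scaffold TPD3 (YAL016W), the regulatory subunits CDC55 (YGL190C) and RTS1 (YOR014W), and the binding partner TAP42 (YMR028W). All 10 passed the filter on low values and were among the 6546 genes tested.

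PP2A is a serine/threonine phosphatase built from a scaffold, a catalytic subunit and one of several regulatory subunits. Ppm1 places a methyl group from S-adenosylmethionine (SAM) on the carboxyl-terminal leucine of the catalytic subunit, and Ppe1 takes it off. This mark favours assembly with some regulatory subunits, Cdc55 among them, and in yeast its level is known to follow the supply of methionine and SAM. The data here are levels of messenger RNA and hold no measure of the methyl mark, of protein or of phosphatase activity.

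Poly-A RNA was read in 12 libraries, 2 in each of 6 groups, from MAT a cells of the CEN.PK background. WT cells were compared with cells carrying cho2-delta::KanMX (called cho2). CHO2 encodes the enzyme that adds the first methyl group to phosphatidylethanolamine on its way to phosphatidylcholine, a large consumer of SAM. Each strain was sampled in YPL (1% yeast extract, 2% peptone, 2% lactate) before the switch at an A600 of 1.0, and 1 h and 3 h after a wash and transfer to SL (0.17% nitrogen base without amino acids, 0.5% ammonium sulfate, 2% lactate). None of the 12 libraries comes from a culture kept in YPL for 1 h or 3 h, so medium, time and handling cannot be told apart. Both libraries of a group are named biological replicates, without a word on separate cultures. The p-values therefore measure only the spread between these libraries, which may be technical.

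The libraries held 3.17 M to 12.5 M recovered reads (M for mega), and the second lowest held 9.17 M. The shallowest was the second WT library at 3 h. One library stood apart, the cho2 library numbered 2 at 3 h: its median gene was -0.34 (log2) from the mean over all libraries, and 91.3% of the tested genes, all 10 described here included, were lower there than in the first. CHO2 stood at 3.77 to 9.19 in the cho2 libraries and at 1570.5 to 4065 in WT. Of the a-specific mating-type genes, STE2 lay at 692 to 1549, MFA2 at 595 to 1854, STE6 at 453 to 1340, MFA1 at 237 to 916 and BAR1 at 156 to 572. Of the alpha-specific genes, MF(ALPHA)1 lay at 3.03 to 34.9, MF(ALPHA)2 at 20.4 to 72.3 and STE3 at 93.0 to 339. SAG1, an alpha-specific agglutinin gene, was read at 407 to 1023. The ranges of STE3 and SAG1 overlapped that of BAR1.

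Values are the deposited normalised read counts, and differences are log2 ratios ± SE from limma, called at a Benjamini-Hochberg adjusted p under 0.05 over all genes tested. In bulk RNA, fewer cells with a transcript and less of it per cell cannot be told apart. RefSeq R64 placed no other gene over any of the 10. Of the 6685 genes listed, 679 did not match that reference, and overlap with these could not be checked. PPH21 and PPH22 are paralogs whose coding sequences matched at 88.1% of aligned bases and shared an identical run of 194 bases. How reads that match both were counted is not given in the sources used here. The level of each gene of this pair, their sum and the split between them are therefore uncertain.

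Set per length of coding sequence, the scaffold gene and PPH21 had the most abundant transcripts of the 10. TPD3 and PPH21 held the top places in each of the 6 groups: in WT in YPL they stood at 1396 ± 125 and 1312 ± 50.2 counts per kb (mean ± SD, n = 2), and their libraries overlapped. SIT4 followed at 1120.1 ± 126 and PPH22 at 904 ± 16.3. RTS1, for a regulatory subunit of the B56 type, stood at 738 ± 33.7 per kb, PPM1 at 673 ± 54.3, PPH3 at 672 ± 100.2 and CDC55, for a subunit of the B55 type, at 598 ± 6.30. Those for PPM1, PPH3 and CDC55 overlapped between neighbours in that order. TAP42 came next at 451 ± 57.7, and PPE1 was lowest at 302 ± 5.95. PPE1 was lowest in 5 groups, while in cho2 at 1 h PPM1 was lowest at 469.6 ± 38.6 per kb, below PPE1 at 531 ± 11.7.

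**Figure D1:**
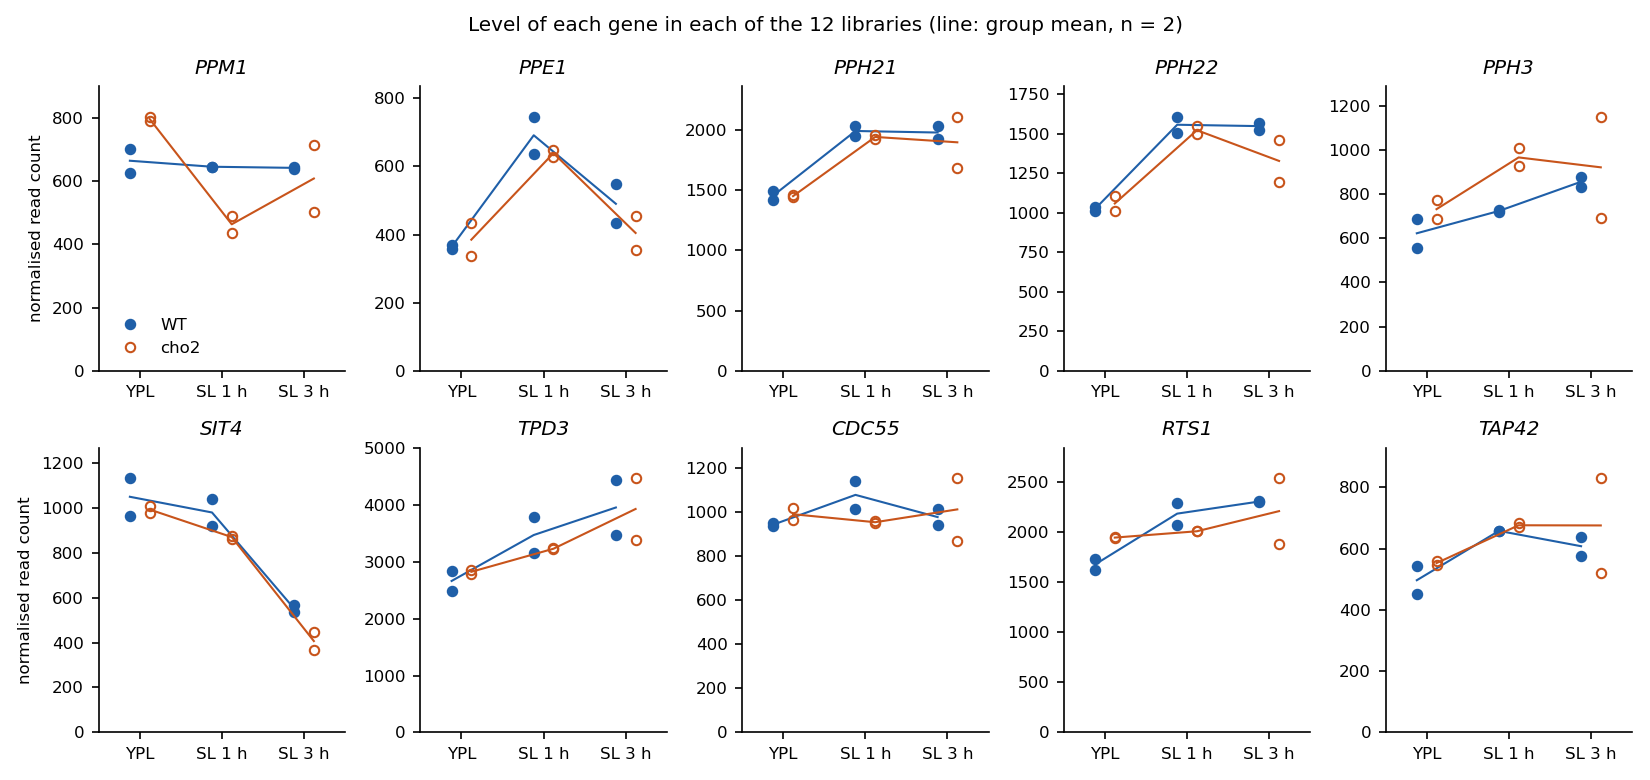
Normalised read count (y axis, from 0) of each of the 10 genes in YPL and at 1 h and 3 h in SL; filled points are WT libraries, open points cho2 libraries, and lines join group means (n = 2). SIT4 sits lowest at 3 h in both strains, PPE1 peaks at 1 h, and PPM1 in cho2 dips at 1 h to 437 and 490.4.

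The level of PPE1 rose in the first hour in SL in both strains, and that of PPM1 fell in cho2. The 2 WT libraries read PPE1 at 359 and 369 before the switch, 636 and 746 at 1 h, and 433 and 547 at 3 h. In cho2 it stood at 337 and 433 in YPL, at 649 and 629 at 1 h, and at 454 and 355 at 3 h. In both strains the 1 h libraries lay above all others of that strain. The rise at 1 h was 0.92 ± 0.19 in WT (limma adjusted p = 0.000255), or 1.89-fold, and 0.74 ± 0.19 in cho2 (limma adjusted p = 0.0024), or 1.67-fold. Without the first cho2 library in YPL the cho2 value was 0.56 (adjusted p = 0.0793). From 1 h to 3 h PPE1 fell by 0.67 ± 0.19 in cho2 (limma adjusted p = 0.00965) and by 0.50 ± 0.19 in WT (limma adjusted p = 0.0441). The fall in WT did not pass with TMM scaling (-0.30), with quantile normalization (-0.32), with the 4 libraries alone, or without any of 7 libraries, among them either WT library at 1 h (-0.61 and -0.39) and the first at 3 h (-0.33). That in cho2 did not pass without either 1 h library (-0.65 and -0.69) or the second 3 h library (-0.49).

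PPM1 varied little in the WT libraries, at 702 and 627 in YPL, 646 and 645 at 1 h, and 640 and 644 at 3 h. In cho2 it stood at 789 and 804 in YPL, at 490.4 and 437 at 1 h, and at 715 and 501 at 3 h. The 1 h libraries of cho2 were the lowest of all 12, and those of cho2 in YPL the highest. The fall in cho2 from YPL to 1 h was -0.78 ± 0.18 (limma adjusted p = 0.000895), a fold of 0.581, against -0.04 ± 0.18 in WT (limma adjusted p = 0.863). It passed under every alternative tried, with values of -0.87 to -0.69. At 3 h the value in cho2 was -0.41 ± 0.18 (limma adjusted p = 0.0571), which passed with TMM scaling (-0.28) and without the first 3 h library (-0.67), and was -0.15 without the second.

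The difference between the strains in this change was -0.74 ± 0.26 and did not pass (limma adjusted p = 0.131), with a 95% interval of -1.27 to -0.21 for the single gene. That test called 3.61% of all genes and 0 of the 10, and edgeR and DESeq2 called 0 and 0 of the 10. A raw limma p under 0.05 was found for 903 of 6546 genes and for 1 of the 10. PPM1 passed with TMM scaling (-0.65, adjusted p = 0.0307), with quantile normalization (adjusted p = 0.0302), in edgeR with TMM (adjusted p = 0.0178), with the 8 libraries of the comparison alone (adjusted p = 0.0139), and without the first or the second cho2 library at 3 h (adjusted p = 0.0178 and 0.0176). For the change from YPL to 3 h, 0.703% of all genes were called (10.9% of the calls higher, 24.6% with TMM scaling) and 0 of the 10. There edgeR and DESeq2 called 0 and 0 of the 10, and 566 of 6546 genes and 0 of the 10 had a raw limma p under 0.05.

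The ratio of PPM1 to PPE1 within a library does not depend on the scaling between libraries. In WT it was 1.96 and 1.70 in YPL, 1.01 and 0.865 at 1 h, and 1.48 and 1.18 at 3 h. In cho2 it was 2.34 and 1.86 in YPL, 0.756 and 0.694 at 1 h, and 1.58 and 1.41 at 3 h. All 4 YPL libraries lay above all 8 SL libraries. The mean log2 ratio was lower by 0.86 in SL than in YPL (log2 0.10 against 0.96; two-sided exact permutation test within strains, p = 0.0133, adjusted p = 0.04 over 6 ratio tests; lower in 8 of 8 SL libraries). Leaving out 1 library kept the difference between -0.96 and -0.76. The call ended without either WT library at 1 h (-0.84 and -0.80) or the second cho2 library at 3 h (-0.93), each with an adjusted p of 0.06. With a YPL library left out the smallest p this test can give is 0.0133, too large for 1 ratio to pass alone over 6 tests, so those fits do not bear on the call. Averaged over the 3 conditions the mean log2 ratio was 0.39 in both strains (exact permutation p = 1). That average joined opposite directions. At 1 h both cho2 libraries (0.756 and 0.694) lay below both WT libraries (1.01 and 0.865). In YPL and at 3 h the ratio was on average higher in cho2, with overlapping libraries. The strains were not tested for this ratio within single conditions.

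**Figure D2:**
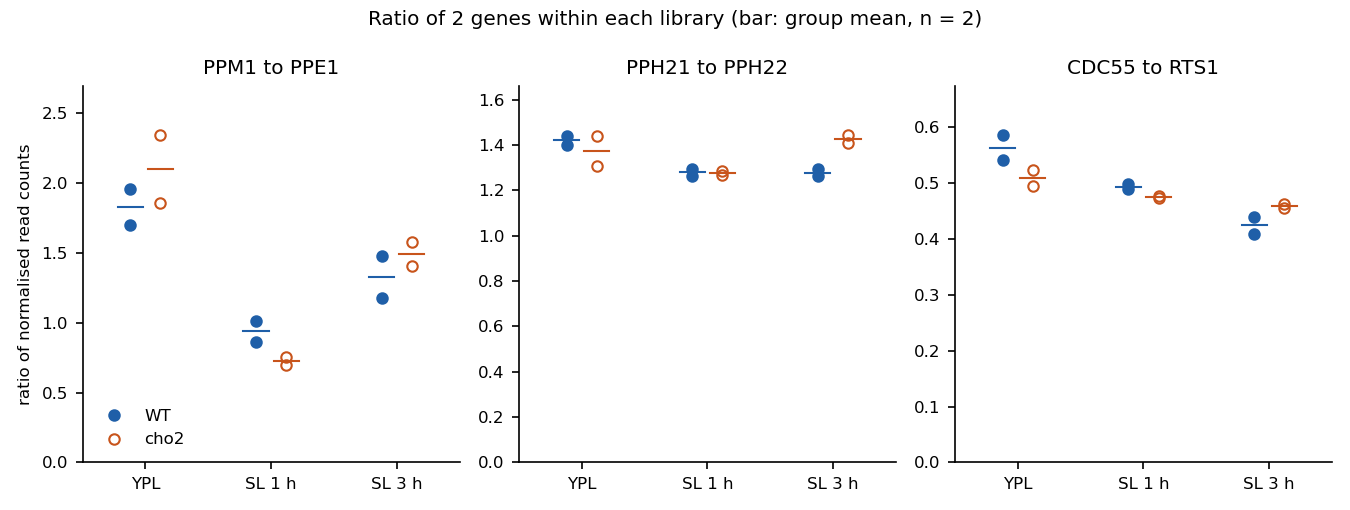
Ratio of normalised read counts of 2 genes within each library (y axes from 0), for PPM1 to PPE1, PPH21 to PPH22 and CDC55 to RTS1; filled points are WT, open points cho2, bars group means (n = 2). PPM1 to PPE1 is highest in YPL and lowest at 1 h, and CDC55 to RTS1 lies between 0.41 and 0.586.

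Of the 4 genes for catalytic subunits, the paralogs PPH21 and PPH22 rose after the switch and SIT4 fell by 3 h. PPH22 stood at 1038 and 1012 in WT in YPL, at 1505 and 1609 at 1 h, and at 1526 and 1569.9 at 3 h. In cho2 it stood at 1013 and 1105 in YPL, at 1549 and 1496 at 1 h, and at 1462 and 1194 at 3 h. Every SL library was above every YPL library. In WT the rise was 0.60 ± 0.16 at 1 h and 0.59 ± 0.16 at 3 h (limma adjusted p = 0.00287 and 0.00342). In cho2 it was 0.52 ± 0.16 at 1 h (limma adjusted p = 0.00931), a call that ended without the first YPL library (0.46) or either 1 h library (0.50 and 0.55). The value of 0.32 ± 0.16 at 3 h did not pass (limma adjusted p = 0.0964), although it did with TMM scaling (0.45) and without the second 3 h library (0.47), and was 0.17 without the first.

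PPH21 had a closely similar course, from 1496 and 1417 in WT in YPL to 1947 and 2036 at 1 h and 1926 and 2032 at 3 h. Its cho2 libraries read 1457 and 1444 in YPL, 1961 and 1923 at 1 h, and 2111 and 1683 at 3 h. Again no SL library reached down to a YPL library. The rise was 0.45 ± 0.16 at 1 h and 0.44 ± 0.16 at 3 h in WT (limma adjusted p = 0.02 and 0.0239), and 0.42 ± 0.16 and 0.38 ± 0.16 in cho2 (limma adjusted p = 0.0332 and 0.0492). These were among the least firm calls: leaving out any 1 library of the groups compared ended the calls at 1 h in both strains (values 0.41 to 0.49) and at 3 h in WT (0.40 to 0.48). At 3 h in cho2 the call ended without any 1 of the 12 libraries except the second cho2 library at 3 h, with 0.21 without the first, in a fit of these 2 groups only, and with a filter of 50 in place of 10 (adjusted p = 0.0505). The ratio of PPH21 to PPH22 stayed between 1.26 and 1.44 in all 12 libraries. It showed no call for SL against YPL (log2 -0.09, exact permutation p = 0.102, adjusted p = 0.204) or for cho2 against WT (log2 0.03, exact permutation p = 0.333, adjusted p = 0.5). Over the 12 libraries the log2 levels of this pair correlated at r = 0.97, as a description of libraries that share groups and, possibly, reads.

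SIT4 encodes a phosphatase of the PP6 type that acts in signalling by TOR, the nutrient-responsive kinase, and at the start of the cell cycle. In WT it stood at 965 and 1132 in YPL, at 920.3 and 1037 at 1 h, and at 535 and 567 at 3 h. In cho2 it stood at 977 and 1007 in YPL, at 876 and 862 at 1 h, and at 448 and 365 at 3 h. The 4 libraries at 3 h were the lowest of all. From YPL to 3 h it fell by 0.92 ± 0.17 in WT (limma adjusted p = 7.02e-05) and by 1.29 ± 0.17 in cho2 (limma adjusted p = 6.76e-07), to 0.527 and 0.408 of the YPL level. From 1 h to 3 h the change was -0.83 ± 0.17 in WT and -1.10 ± 0.17 in cho2 (limma adjusted p = 0.000532 and 2.32e-05). These 4 calls held in every alternative and with any library left out. In the first hour -0.10 in WT and -0.19 in cho2 did not pass, but both passed in edgeR with TMM (-0.25 in each, adjusted p = 0.0395 and 0.0438), and the cho2 value also with the 4 libraries alone (adjusted p = 0.0495). The WT value ran from -0.25 to 0.02 over the alternatives, the last without the second YPL library. Relative to the median of all genes the change to 3 h was -0.85 in WT and -1.11 in cho2.

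The amount of SIT4 relative to PPH21 and PPH22 fell after the switch, in the first hour without a call for SIT4 itself. Per length, SIT4 amounted to 0.456 and 0.558 of the sum of PPH21 and PPH22 in the WT libraries in YPL, to 0.319 and 0.341 at 1 h, and to 0.186 and 0.188 at 3 h. In cho2 the values were 0.473 in both YPL libraries, 0.299 and 0.302 at 1 h, and 0.15 and 0.152 at 3 h. The libraries of the 3 conditions did not overlap in either strain.

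PPH3, for a phosphatase of the PP4 type known from recovery after DNA damage, had no call from YPL to 1 h or 3 h. In WT it stood at 557 and 688 in YPL, 727 and 719.7 at 1 h and 879 and 832 at 3 h, with 0.47 ± 0.20 from YPL to 3 h (limma adjusted p = 0.0528), which passed with TMM scaling (0.51) and in 8 other alternatives. In cho2 it stood at 689 and 774 in YPL, 1007 and 925 at 1 h, and 1151 and 691 at 3 h. The last pair held the highest value of the gene and one below both 1 h libraries, and the lower value came from the library with the low median gene. The change to 3 h in cho2 was 0.29 (limma adjusted p = 0.226), and 0.66 without that library (adjusted p = 0.00349) but -0.08 without the first. The cho2 change at 1 h was 0.40 ± 0.20 (limma adjusted p = 0.0991). It passed with TMM scaling (0.34), quantile normalization (0.51), edgeR with TMM (0.34), the 4 libraries alone, and without either cho2 library at 3 h.

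TPD3, the scaffold that every PP2A trimer holds, rose by 3 h in both strains. It stood at 2833 and 2495 in WT in YPL, at 3786 and 3158 at 1 h, and at 4439 and 3473 at 3 h. In cho2 it read 2858 and 2792 in YPL, 3218 and 3243 at 1 h, and 4474 and 3386 at 3 h. The rise to 3 h was 0.56 ± 0.18 in WT and 0.46 ± 0.18 in cho2 (limma adjusted p = 0.00967 and 0.0294). The call in WT ended without its second YPL (0.47) or its first 3 h library (0.39), and in cho2 without either YPL library or the first 3 h library (0.26), or with the 4 libraries alone. At 1 h in WT the value was already 0.38 ± 0.18, which did not pass (limma adjusted p = 0.0704) but did in 3 of 11 alternative settings.

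Of the regulatory subunits, RTS1 rose in WT and CDC55 had no call. RTS1 read 1624 and 1732 in the WT libraries in YPL, 2075 and 2297 at 1 h, and 2297 and 2316 at 3 h, with 0.46 ± 0.17 at 3 h (limma adjusted p = 0.0233, a call that ended without any 1 of the 4 libraries compared). Its 0.38 ± 0.17 at 1 h in WT did not pass (limma adjusted p = 0.0551) but did in 5 of 11 alternative settings. In cho2 it read 1944 and 1949 in YPL, 2009 and 2009.9 at 1 h, and 2542 and 1880.1 at 3 h, and 0.17 ± 0.17 at 3 h did not pass (limma adjusted p = 0.405), although 0.30 with TMM scaling and 0.38 without the second 3 h library did, and the value was -0.05 without the first. CDC55 was the most even of the 10, with a highest value 1.33 times the lowest, and only 0.321% of tested genes had a smaller range. For CDC55, 1 of 11 alternative settings called the change from YPL to 1 h in WT. In cho2 1 of 11 called its change from YPL to 3 h, and 2 of 11 that from 1 h to 3 h. The ratio of CDC55 to RTS1 was lower in SL, at 0.41 to 0.498 in 8 libraries against 0.496 to 0.586 in the 4 YPL libraries, ranges that overlapped at their ends. In WT the ratio was 0.586 and 0.541 in YPL and 0.41 to 0.498 in SL. The gap was narrower in cho2, with 0.496 and 0.524 in YPL and 0.455 to 0.478 in SL. Averaged over both strains the difference was -0.21 on the log2 scale (two-sided exact permutation test within strains, p = 0.00444, the smallest this test can give, adjusted p = 0.0267; lower in 8 of 8). It ran from -0.24 to -0.18 with 1 library left out, and passed without any 1 of the 8 SL libraries. For cho2 against WT the ratio differed by -0.03 (exact permutation p = 0.556, adjusted p = 0.667).

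TAP42 encodes the protein that holds catalytic subunits in TOR signalling, and it had no call. It ranged from 452 to 830.2 over the 12 libraries, and its differences from YPL ran from 0.25 to 0.41 (limma adjusted p from 0.0754 to 0.281). Of 11 alternative settings, 3 called its change at 1 h in WT and 3 that at 3 h in WT. In cho2 3 of 11 called the change at 1 h and 4 of 11 that at 3 h. Leaving out the lower cho2 library at 3 h gave a change of 0.59 in cho2 (limma adjusted p = 0.00474), and leaving out the other gave -0.09, the opposite direction.

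**Figure D3:**
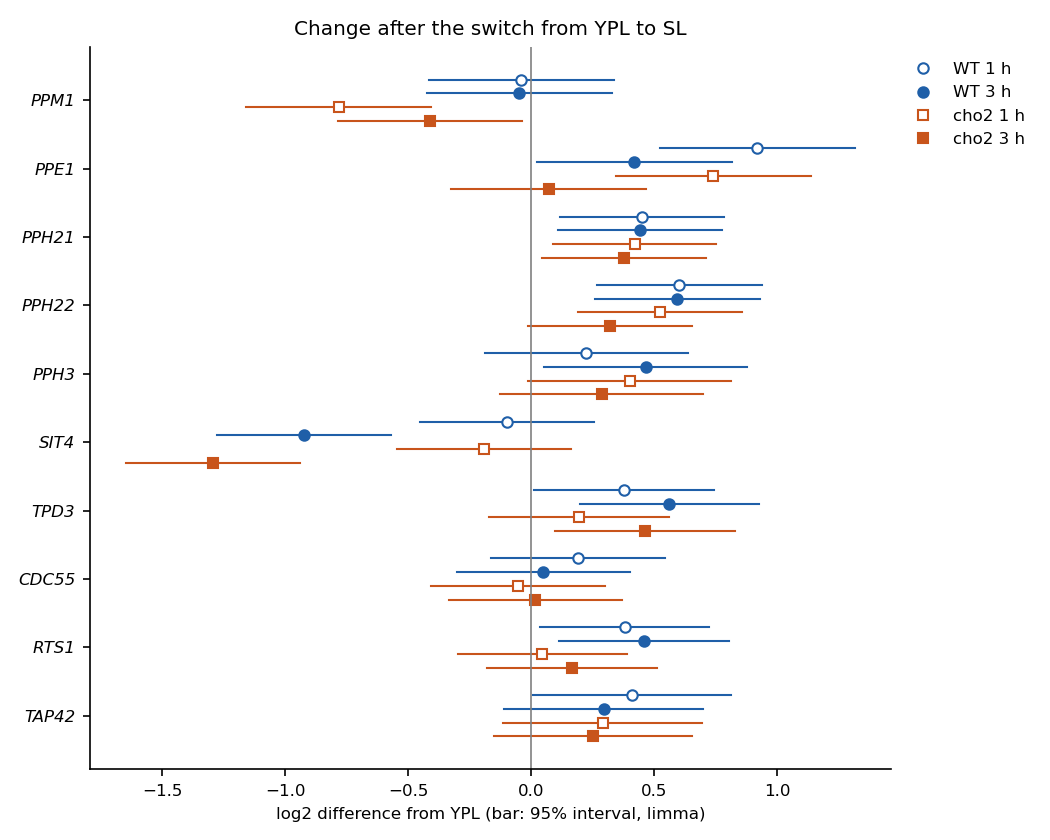
Log2 difference from YPL (x axis) of each gene at 1 h (open) and 3 h (filled) in WT (circles) and cho2 (squares), with 95% intervals from limma. The SIT4 values at 3 h, -0.92 and -1.29, lie farthest below 0, and the PPE1 values at 1 h, 0.92 and 0.74, farthest above.

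The 10 genes were counted beside all genes tested, and 1 h and 3 h were each read against the same YPL libraries. Shares of all genes beside these counts are from the fit as reported, not from TMM scaling or the 4 libraries alone. In WT at 1 h 3 of 10 were higher and 0 lower, beside 57.5% of all genes called (33.7% higher, 23.8% lower), with a median of 0.38 against 0.18 for all genes. At 3 h in WT 4 were higher and 1 lower beside 53.7% (22.9% higher, 30.8% lower; 8 in all with TMM scaling), with a median of 0.43 against -0.08. In cho2 at 1 h 3 were higher and 1 lower beside 49.8% (25.2% higher, 24.6% lower), with a median of 0.24 against 0.05. At 3 h in cho2 2 were higher and 1 lower beside 56.8% (19.8% higher, 37% lower; 8 in all with TMM scaling, 1 with the 4 libraries alone), with a median of 0.21 against -0.18. From 1 h to 3 h 2 of 10 fell in WT beside 36.6% (11.1% higher, 25.5% lower; 4 called with TMM scaling), and 2 in cho2 beside 31.7% (7.99% higher, 23.8% lower; 6 called with TMM scaling). TMM scaling moved the median of all genes by -0.16 for WT at 1 h, by 0.13 for cho2 at 3 h, and by 0.20 in WT and 0.19 in cho2 from 1 h to 3 h. The share of higher genes among all calls went from 58.7% to 48.8% for WT at 1 h, from 34.9% to 45.2% for cho2 at 3 h, and from 1 h to 3 h from 30.3% to 51.3% in WT and from 25.2% to 50.3% in cho2.

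Between the strains no gene of the 10 passed in any condition. In YPL limma called 0.412% of all genes and 0 of 10, and 456 of 6546 genes and 0 of 10 had a raw p under 0.05. For the 10, edgeR and DESeq2 called 0 and 0. The differences lay between -0.08 and 0.26, and the 95% intervals reached from -0.43 (SIT4) to 0.65 (PPH3). The libraries of the strains did not overlap for 5 of the 10 genes, as for 46.4% of all genes.

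At 1 h limma called 9.23% of all genes and 0 of 10, and edgeR and DESeq2 called 0 and 0 of the 10. A raw limma p under 0.05 was found for 1435 of 6546 genes and for 2 of the 10. The pair was PPM1, lower in cho2 at -0.48 ± 0.18 (limma adjusted p = 0.11, interval -0.85 to -0.10), and PPH3, at 0.41 ± 0.20 (limma adjusted p = 0.225, interval 0.0023 to 0.83). Both passed with TMM scaling (-0.41 and 0.48), with quantile normalization, in edgeR with TMM, with the 4 libraries alone, and without either cho2 library at 3 h. Libraries of the strains did not overlap for 6 of the 10, against 64.5% of all genes.

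At 3 h 3.44% of all genes were called and 0 of 10, and edgeR and DESeq2 called 0 and 0 of the 10. Raw limma p-values under 0.05 came from 1105 of 6546 genes and from 1 of the 10. SIT4 stood at -0.45 ± 0.17 in cho2 (limma adjusted p = 0.167, interval -0.80 to -0.09). It passed without the first cho2 library at 3 h (-0.59, adjusted p = 0.0229), which leaves the library with the low median gene as the only one of its group, and was -0.30 without the second. Libraries of the strains did not overlap for 2 of the 10, against 31.4% of all genes. Averaged over the 3 conditions 8.17% of all genes were called and 0 of 10, and 1500 of 6546 genes and 1 of 10 had a raw limma p under 0.05. For the 10, edgeR and DESeq2 called 0 and 0, and all 10 values lay between -0.23 and 0.24. With TMM scaling 2 passed, PPH3 at 0.27 and SIT4 at -0.20. That scaling moved the share of higher genes among all calls from 39.4% to 52.9% at 1 h, from 17.8% to 33.7% at 3 h and from 34.2% to 44.6% for the average.

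**Figure D4:**
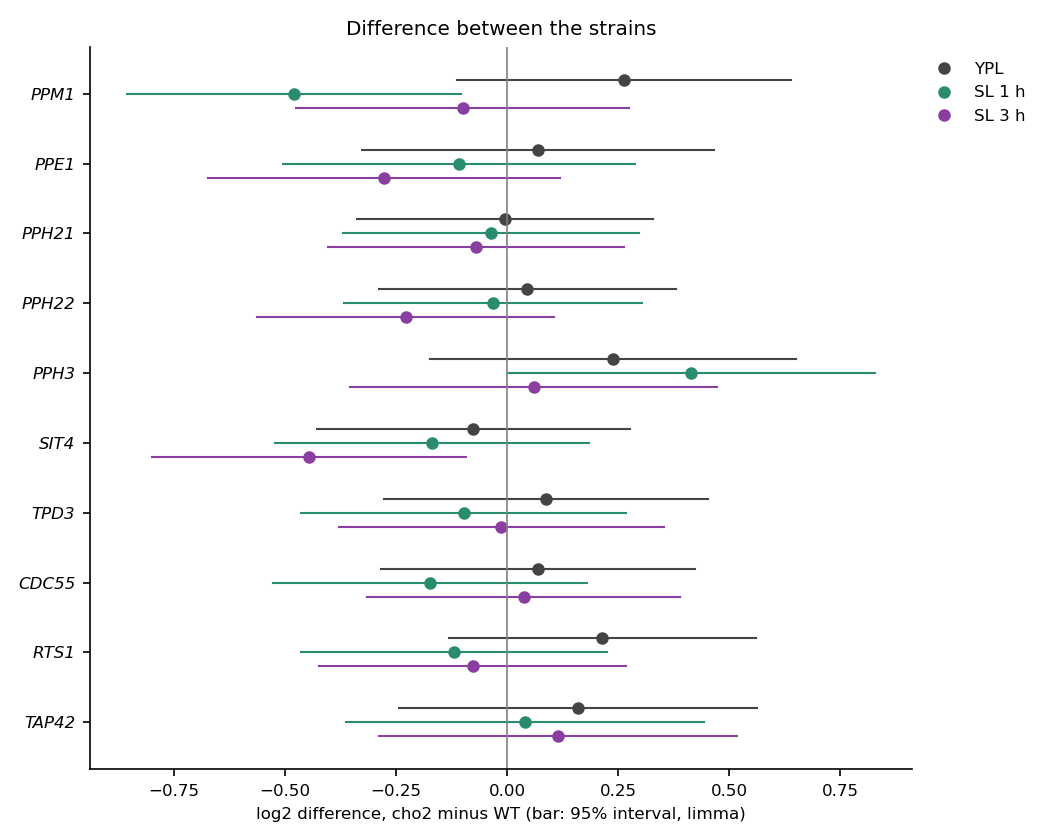
Log2 difference between the strains (x axis, cho2 minus WT) of each gene in YPL and at 1 h and 3 h in SL, with 95% intervals from limma. No adjusted p was under 0.05; the intervals of PPM1 and PPH3 at 1 h and of SIT4 at 3 h lie to 1 side of 0.

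Other genes of the PP2A system were taken from a list of 21 partners and modulators. At 1 h in WT 7 of 21 were higher and 1 lower (median 0.23), beside 33.7% and 23.8% of all genes, and at 3 h 2 higher and 4 lower (median 0.00), beside 22.9% and 30.8%. In cho2 the counts were 3 and 0 at 1 h (median 0.11), beside 25.2% and 24.6%, and 3 and 9 at 3 h (median -0.33), beside 19.8% and 37%. RRD1, for an activator of the PTPA family known to bind Sit4, read 527 and 798 in the WT libraries in YPL, 578 and 805 at 1 h, and 206 and 157 at 3 h. In cho2 it read 579 and 612, then 455 and 454, then 106 and 111. The fall to 3 h was -1.85 ± 0.21 in WT and -2.45 ± 0.21 in cho2 (limma adjusted p = 8.99e-08 and 7.95e-10). TIP41, whose protein binds Tap42, rose at 1 h by 0.76 in WT and 0.59 in cho2 (limma adjusted p = 0.000957 and 0.00861). FAR7, of a complex that holds PP2A subunits, rose at 3 h by 0.89 and 0.99 (limma adjusted p = 0.000722 and 0.000216). Between the strains 0 of 21 passed in YPL, at 1 h or at 3 h, beside 0.412%, 9.23% and 3.44% of all genes. In that order a raw limma p under 0.05 was found for 1, 2 and 2 of the 21, beside 456, 1435 and 1105 of 6546 genes. For the 21, edgeR called 0, 0 and 0 (27, 653 and 219 of all genes) and DESeq2 0, 0 and 1 (50, 748 and 344 of all genes). In the average over conditions 1 of 21 passed, beside 8.17% of all genes. This was RRD1, lower in cho2 at -0.48 (limma adjusted p = 0.0181).

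Among 8 genes known to act upstream or downstream of these phosphatases, 5 rose and 0 fell at 1 h in WT (33.7% and 23.8% of all genes), and 3 rose and 1 fell in cho2 (25.2% and 24.6%). At 3 h 3 were higher and 1 lower in WT (22.9% and 30.8% of all genes), and 2 higher and 1 lower in cho2 (19.8% and 37%). RPH1 encodes a histone demethylase reported to be a target of PP2A. From YPL to 1 h it rose by 1.62 in WT and 1.38 in cho2 (limma adjusted p = 1.17e-07 and 1.54e-06). IML1, of the SEACIT complex that restrains TORC1, rose at 1 h by 1.07 and 0.85 (limma adjusted p = 5.26e-05 and 0.000802), while its partners NPR2 and NPR3 had no call. For cho2 against WT 0 of 8 passed in YPL, at 1 h or at 3 h, beside 0.412%, 9.23% and 3.44% of all genes. At 1 h edgeR and DESeq2 each called 1 of the 8, beside 653 and 748 of 6546 genes. In the average over conditions 1 of 8 passed, lower in cho2, beside 8.17% of all genes.

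A list of 15 other phosphatase genes served for comparison. At 1 h it had 4 higher and 1 lower in WT (median 0.13) and 1 higher and 3 lower in cho2 (median 0.06), where 57.5% and 49.8% of all genes were called. At 3 h it had 1 higher and 3 lower in WT (median -0.16) and 1 higher and 5 lower in cho2 (median -0.27), where 53.7% and 56.8% were called. PPM1 and PPE1 each lie head to head with a gene of that list, PPZ2 (PP1-like) and PTC7 (PP2C type). From YPL to 1 h in cho2, where PPM1 fell, PPZ2 had no call, and PTC7 fell (log2 -0.69, limma adjusted p = 0.00736) where PPE1 rose.

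**Figure D5:**
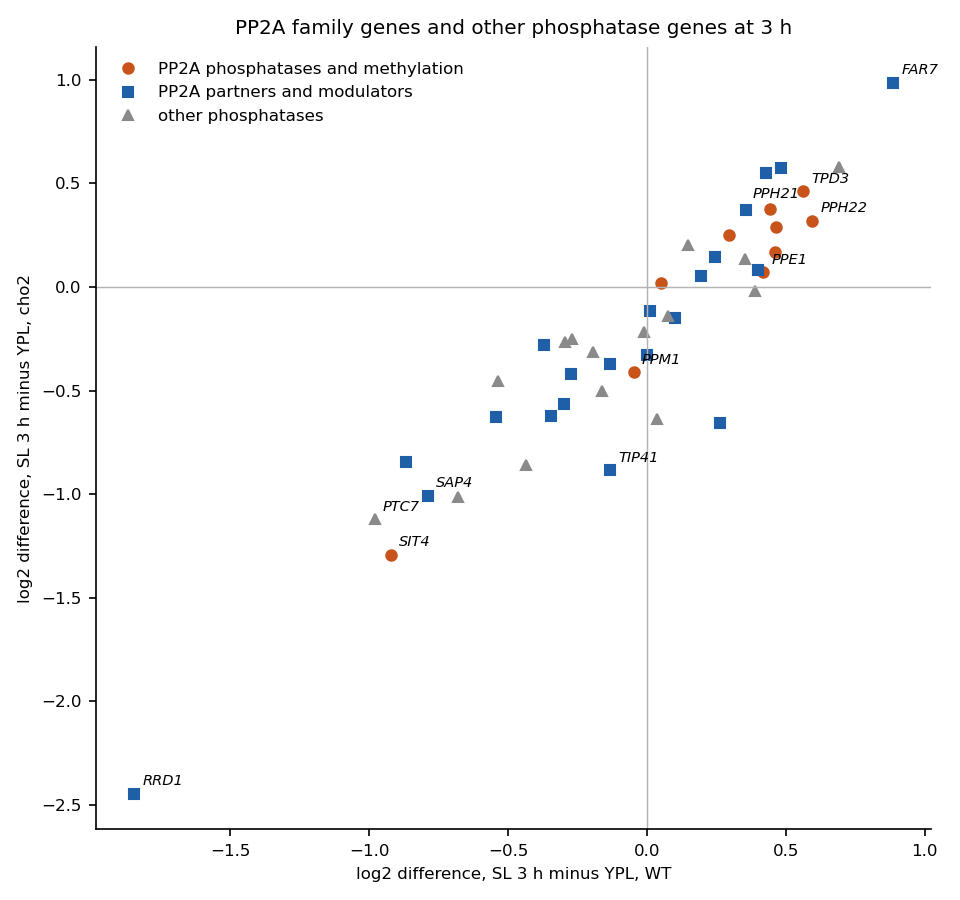
Log2 difference at 3 h in SL from YPL in WT (x axis) and in cho2 (y axis), 1 point per gene, for the 10 genes, the 21 partners and modulators, and 15 other phosphatases. RRD1 lies at -1.85 and -2.45, SIT4 at -0.92 and -1.29, and FAR7 at 0.89 and 0.99.

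As a description of pattern, the genes most like each of 4 members over the 12 libraries were sought among 5147 named genes. For PPM1 they were AVT7 (r = 0.92), DOA4 (r = 0.92) and PDR8 (r = 0.90), and only 2 genes had an r over 0.9. For PPE1 they were BUD8, RIM101 and UBP11 (r = 0.97, 0.96 and 0.96), with 163 genes over 0.9. PPH21 was most like HUL5, URC2 and TBS1, and PPH22 most like TRR2, ATG36 and HUL5 (r from 0.97 to 0.99), with 452 and 372 genes over 0.9. These values rest on libraries that share groups and scaling.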

How the data were processed

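The deposited table holds signal values, which are gene counts divided by 1 factor per library. The authors made these signal values with Bowtie and DESeq on build sacCer2, as the submitters' processing notes say, which name no version. What counted the reads, on which annotation and with what strand setting is likewise not given. Division of a column by its step gave whole reads for 100% of its values (tolerance 0.01 reads), and these recovered reads were used for depth and count tests; in 3 columns the step lay near 1. A gene entered the tests if 2 or more libraries had it at 10 or above. The tests used limma 3.58.1 under R 4.3.3, with a trended prior on log2(value + 1), 1 fit of 12 libraries, 6 residual degrees of freedom and 12 contrasts. Such log2 differences understate changes of low genes. Alternatives used edgeR 4.0.16 and DESeq2 1.42.0 on recovered reads, among others. In that count test edgeR called 27, 653 and 219 genes between the strains in YPL, at 1 h and at 3 h. The procedure was tested on simulated data. The build of the reference (RefSeq R64) differs, so it served only for names, coding lengths, neighbours and copies, with no coordinates or sequences printed; 6006 genes matched and 679 did not. Members and lists were chosen with earlier results of these data known. All 10 members were described, and of other lists the text could name up to 3 genes with the smallest adjusted p per contrast, the 3 nearest in pattern, and divergent neighbours. NPR2 and NPR3 were named after their values were seen. Recovered reads of the 10 genes ranged from 192 to 4974 per library, so counting error at the lowest was 7.22%. Tables and figures used Python 3.11.15, numpy 2.4.6 and matplotlib 3.10.9.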

Additional observations from a re-analysis of the deposited data

How the results depend on the processing

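None of the 19 calls among the 10 genes changed sign, and 8 of them passed under every alternative: PPE1 and PPH22 at 1 h in WT, PPH22 at 3 h in WT, PPM1 at 1 h in cho2, and SIT4 to 3 h from YPL and from 1 h in both strains. Of the 101 differences without a call, 35 passed in at least 1 alternative. Counts of members called follow in a fixed order: the strains at 1 h, the strain average, WT at 1 h, WT at 3 h, WT from 1 h to 3 h, cho2 at 1 h, cho2 at 3 h, cho2 from 1 h to 3 h, and the strain difference in the change to 1 h, with 0, 0, 3, 5, 2, 4, 3, 2 and 0 as reported. TMM scaling gave 2, 2, 4, 8, 4, 5, 8, 6 and 1. Quantile normalization gave 2, 2, 7, 8, 2, 8, 8, 4 and 1. The groups of a contrast alone gave 2 for the strains at 1 h, 5, 6, 1, 8, 1 and 2 for the changes, and 1 for the strain difference; the average has no such fit. Added after the data were seen, edgeR with TMM gave 2, 2, 4, 8, 3, 6, 8, 6 and 1, and leaving out both 3 h libraries numbered 2 gave 2, 2, 6, 6, 2, 6, 7, 5 and 1. With 1 library left out the counts ranged from 0 to 2, 0 to 1, 2 to 6, 3 to 8, 1 to 2, 1 to 5, 1 to 7, 1 to 4 and 0 to 1, from 0 to 1 for the strains at 3 h, and stayed at 0 for the strains in YPL and the change to 3 h. The cause was not tested. The share of all genes called in each of these settings is not given here. These counts therefore do not set the 10 genes apart from all genes. A pseudocount of 5, no filter, a filter of 50, and edgeR or DESeq2 with the deposited scaling moved no count by over 1.5 times.

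The ratio of PPM1 to PPE1 in SL against YPL ranged from -0.96 to -0.76 with 1 library left out, and CDC55 to RTS1 from -0.24 to -0.18. Same-numbered libraries did not deviate together throughout: over 15 pairs of groups the correlation of replicate differences ran from -0.20 to 0.54, with 6 over 0.1. With the number as a replicate block the counts were 4 for WT at 1 h, 6 for WT at 3 h and 4 for cho2 at 3 h, and neither ratio passed, with values of -0.86 and -0.21 and an adjusted p of 0.0741 each; the smallest p this blocked test can give is 0.0123, too large for 1 ratio to pass alone over 6 tests. Counts for the other lists were not recomputed under the alternatives. With 2 libraries a group, differences within the intervals given could not be told from none.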
